A study of Mus musculus with 9 samples.

Results

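The MHC class II presentation genes described here are 9 genes of mouse liver, H2-Aa, H2-Ab1, H2-Eb1, H2-DMa, H2-DMb1, H2-DMb2, H2-Oa, Cd74 and Ciita. The rule takes them by gene symbol from the 54532 genes of the count table and uses no measured value, but the set was proposed with earlier results of these data known. The RNA came from 9 male C57BL/6 mice, 1 liver each, with 3 mice per group. The young mice were 8 weeks old, and the labels describe no injection for them. The old control mice were 20 months old and had received AAV9-shRNA-Neg, an adeno-associated virus with a negative control hairpin, at 14 months, both into the tail vein and into the subcutaneous fat (sWAT). The old Fabp4 shRNA mice were of the same age and had received AAV9-shRNA-Fabp4, with a hairpin against the fatty acid carrier Fabp4, in the same way and amount. Age and virus injection therefore cannot be told apart in any comparison with young liver. All mice ate normal chow, and the study's title concerns healthy ageing through liver metabolism.

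MHC class II molecules display peptides from ingested proteins to CD4+ T cells. An alpha and a beta chain assemble in the endoplasmic reticulum with the invariant chain, Cd74, which blocks the peptide groove and guides the complex to endosomes, where proteases such as cathepsin S cut it down. H2-DM then exchanges the remaining fragment for peptides, H2-O restrains H2-DM, and the co-activator Ciita switches the whole set of genes on together with factors bound to a shared promoter module. In the liver these genes are known mainly from dendritic cells, macrophages, B cells and, at lower levels, sinusoidal endothelium, while hepatocytes normally express little of them.

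Promoter sequences were searched for parts of this module. RefSeq promoter windows, from 250 bases before to 50 bases after a start in GRCm38.p6, were matched for 6 of the 9 members. Windows were searched on both strands for GATTGG (the core of the Y box), AACNGATG (part of the X1 box) and TGACGTCA (the X2 box in its full form). AACNGATG and TGACGTCA can share the bases TG, but no matches printed here overlap. The 60 bases around the Y box of 5 members are shown 5′ to 3′ on the gene's strand, with the matches in capitals, so that members with and without a second match can be compared.
H2-Eb1: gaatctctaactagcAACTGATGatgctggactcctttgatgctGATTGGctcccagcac
H2-DMb1: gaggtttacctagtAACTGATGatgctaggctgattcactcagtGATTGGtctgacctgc
H2-DMb2: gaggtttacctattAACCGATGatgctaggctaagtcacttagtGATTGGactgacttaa
H2-Aa: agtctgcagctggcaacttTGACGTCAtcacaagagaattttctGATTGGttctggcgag
H2-Oa: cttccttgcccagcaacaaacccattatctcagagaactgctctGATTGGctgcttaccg
These stretches lie at chr17:34305763-34305822 (H2-Eb1), chr17:34153085-34153144 (H2-DMb1), chr17:34145114-34145173 (H2-DMb2), chr17:34287857-34287916 (H2-Aa, minus strand) and chr17:34092291-34092350 (H2-Oa).

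All 6 matched members held GATTGG, which 16.1% of all 32851 promoter windows hold. In H2-DMa it stood 199 bases before the start, in only 1 of 2 listed windows, and in the 5 printed members between 44 and 91 bases before it. H2-Eb1, H2-DMb1 and H2-DMb2 also held AACNGATG, found in 2.32% of windows, with 21, 22 and 22 bases between it and GATTGG. This pair, on one strand and within 40 bases, occurred in 11 of all windows, or 0.0335%. H2-Aa alone held TGACGTCA, found in 1.79% of windows, 17 bases before its GATTGG. A match describes letters only and is not a measured binding site. No entry was found for H2-Ab1 and Ciita, and the window of Cd74 was not used here.

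Of the members, 7 lie in one stretch of 224335 bases on chromosome 17 (34092340 to 34316674, GRCm38), in the order H2-Oa, H2-DMa, H2-DMb2, H2-DMb1, H2-Ab1, H2-Aa and H2-Eb1. Ciita lies on chromosome 16 (10480059 to 10528418) and Cd74 on chromosome 18 (60803848 to 60812652). H2-DMb1 and H2-DMb2 are near copies, with 94.6% identity over 1219 aligned transcript bases and 25.2% of the 50-base words of H2-DMb2 also present in H2-DMb1. Their reads could have been split or dropped by the counting, so both are uncertain. Exons of H2-Oa overlap those of BC051537 over 22.8% of their length, and exons of H2-DMa overlap Brd2 over 10.4%, on the opposite strand in both cases. Whether the counting used strand is not given in the sources used here.

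Each library held between 14243344 and 17125440 counts, so that 3 counts, taken as the floor of detection, equal 0.175 to 0.211 CPM before scaling (CPM are counts of a gene relative to the total of its library, the usual depth-scaled unit). Hepatocyte markers summed to between 83816 and 177333 CPM, which here and below are scaled between libraries with TMM, the trimmed mean method of edgeR. The labelled tissue is liver, while the RNA extraction text of the labels names NRVMs. The targeted gene Fabp4 did not separate the old groups, with 7.21, 13.6 and 10.9 CPM in the old control group (replicates 1, 2, 5) beside 11.2, 3.81 and 7.58 CPM in the old Fabp4 shRNA group (replicates 1, 3, 6). Some libraries stood apart. One young column could not be tied to a numbered animal, and its library is referred to as the unnumbered one. It carried 4156 CPM of skeletal muscle genes, against 88.1 CPM in old Fabp4 shRNA replicate 3 and at most 2.88 CPM elsewhere. Its FPKM column holds other values than its count column, and reads recovered from that column are given below as an alternative. Old control replicate 1 stood apart by interferon genes, with 272 CPM of Irf7 against 34.1 to 112 CPM in the other libraries.

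Per unit of length, Cd74 was the most abundant member. Its mean over the 9 libraries was 101 TPM (counts per length, scaled to the same total in each library), followed by H2-Eb1 at 47.9 TPM, H2-Ab1 at 46.0 TPM and H2-Aa at 35.8 TPM. Far lower were H2-DMa at 4.51 TPM, H2-DMb1 at 4.36 TPM, H2-DMb2 at 1.36 TPM, H2-Oa at 0.601 TPM and Ciita at 0.415 TPM. The order of H2-Eb1 and H2-Ab1 was not stable, since the ratio of H2-Eb1 to H2-Ab1 ran from 0.632 to 1.43 between libraries, and that of H2-DMb1 to H2-DMa ran from 0.678 to 1.20. The order of H2-Oa and Ciita rests on few reads, as H2-Oa had at most 12 counts in any library.

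**Figure D1:**
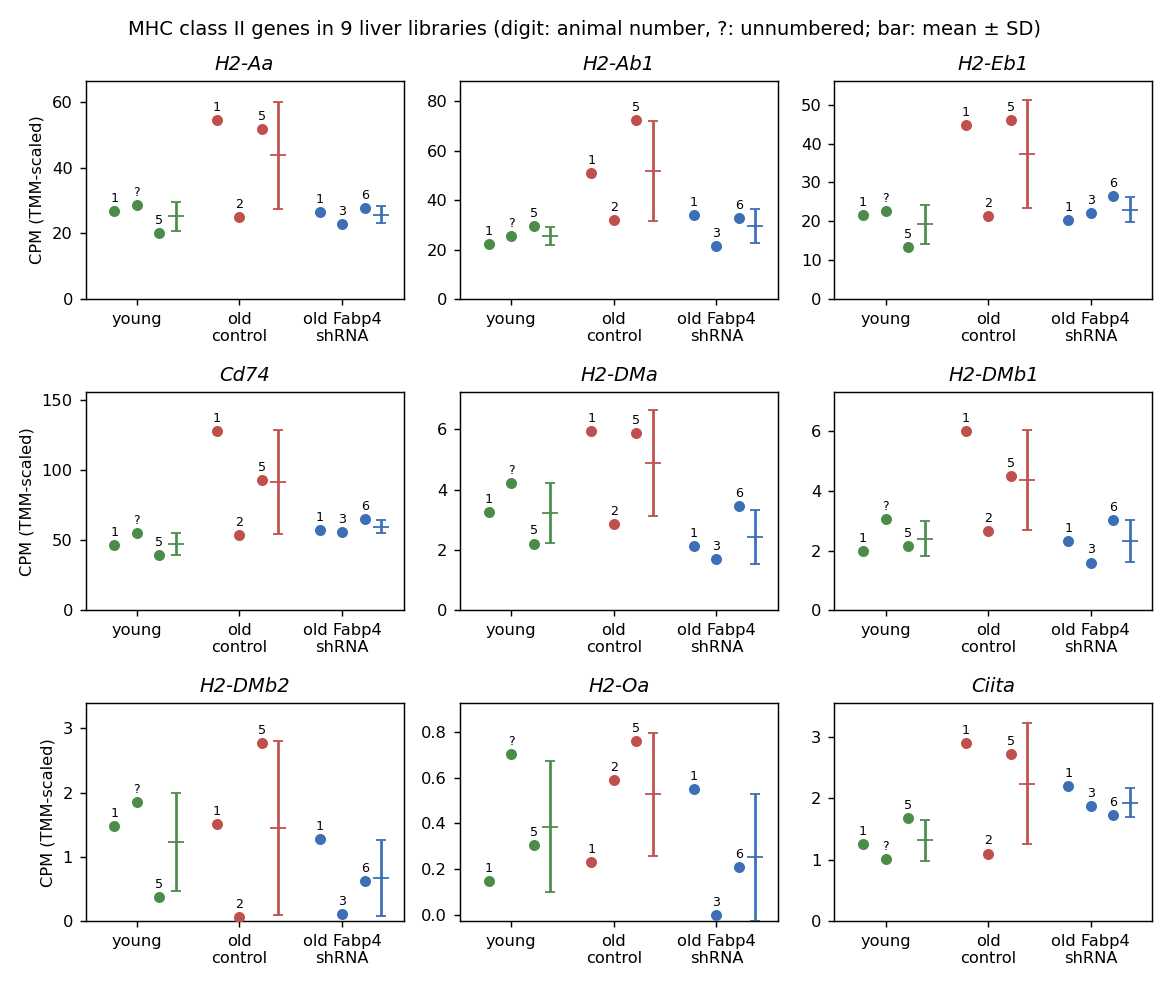
TMM-scaled CPM of each of the 9 members (vertical axis, from 0 except where a bar reaches below it) in the 3 groups, 1 point per library with its animal number, and the mean ± SD (n = 3) beside the points. For H2-Aa, H2-Eb1 and Cd74, old control replicates 1 and 5 stand above all other libraries and replicate 2 lies among them.

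Old control liver was compared with young liver first, which asks how these genes differ with age and injection together. The classical chains and the invariant chain had higher mean levels, and this came from old control replicates 1 and 5, while replicate 2 stayed near the young levels. Summed over all 9 members, the young libraries held 126, 143 and 109 CPM (replicate 1, unnumbered, replicate 5), the old control livers 294, 140 and 280 CPM (replicates 1, 2, 5) and the old Fabp4 shRNA livers 147, 128 and 161 CPM (replicates 1, 3, 6). Of 8 tested members, 0 passed an adjusted p of 0.05 in edgeR, where 0.0357% of all 14025 tested genes passed. All 8 had positive fold changes, with a median of 0.83 on the log2 scale against 0.01 for all tested genes, and 4 were higher at an unadjusted p under 0.05, a mark reached upward by 6.42% of all genes. DESeq2 and limma-voom also called 0 members, with 5 and 4 higher at the same unadjusted mark.

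H2-Aa encodes the alpha chain of I-A, the class II molecule that C57BL/6 mice display. It stood at 26.7, 28.7 and 20.2 CPM in the young libraries (in the order replicate 1, unnumbered, replicate 5), at 54.4, 25.1 and 51.9 CPM in the old control group (replicates 1, 2, 5), and at 26.5, 22.7 and 27.8 CPM in the old Fabp4 shRNA group (replicates 1, 3, 6). Old control replicates 1 and 5 were above all other libraries, replicate 2 lay within the young range, and the groups overlapped. The means were 25.2 ± 4.41 CPM in young and 43.8 ± 16.2 CPM in old control liver (SD, n = 3 each). The edgeR log2 fold change was 0.80 ± 0.28 (SE), and the adjusted p in edgeR was 0.378 (unadjusted p 0.0130).

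H2-Ab1 is the beta chain that pairs with H2-Aa. In the main counts, it was the only member whose old control libraries all stood above the young ones. Its values in the same order were 22.1, 25.5 and 29.4 CPM in young, 51.1, 32.1 and 72.3 CPM in old control, and 33.8, 21.5 and 33.0 CPM in old Fabp4 shRNA liver. Replicate 2 of old control cleared the highest young library by a small margin, and the libraries of 8.89% of all tested genes were likewise apart and higher in old control. The log2 fold change was 1.01 ± 0.29, and the adjusted p in edgeR was 0.296 (unadjusted p 0.00390).

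H2-Eb1 is the beta chain of I-E, whose alpha gene is defective in C57BL/6 mice, so that its RNA is made without a partner chain. The annotated remnant of that gene, H2-Ea-ps, had 0 counts in 8 of the 9 libraries and 4 counts in old Fabp4 shRNA replicate 1. H2-Eb1 itself stood at 21.7, 22.5 and 13.4 CPM in young, 44.8, 21.3 and 46.0 CPM in old control, and 20.3, 22.2 and 26.5 CPM in old Fabp4 shRNA liver. It had the same 2 high libraries as H2-Aa, and old control replicate 2 again lay within the young range. The log2 fold change was 0.96 ± 0.30, and the adjusted p in edgeR was 0.326 (unadjusted p 0.00743).

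Cd74, the invariant chain that escorts all class II molecules, stood at 46.9, 55.1 and 39.5 CPM in young, 127.6, 53.9 and 93.3 CPM in old control, and 57.6, 56.1 and 64.8 CPM in old Fabp4 shRNA liver. Old control replicate 1 was highest, replicate 5 next, and replicate 2 below the highest young library, so the groups overlapped. The means were 47.1 ± 7.83 CPM in young and 91.6 ± 36.8 CPM in old control liver. The log2 fold change was 0.96 ± 0.28, and the adjusted p in edgeR was 0.296 (unadjusted p 0.00438).

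The genes of H2-DM, the editor that loads peptides, were low and gave wider errors. H2-DMa, its alpha chain, stood at 3.25, 4.21 and 2.21 CPM in young, 5.93, 2.87 and 5.87 CPM in old control, and 2.14, 1.71 and 3.45 CPM in old Fabp4 shRNA liver. H2-DMb1, a beta chain, stood at 2.00, 3.07 and 2.14 CPM in young, 5.99, 2.65 and 4.48 CPM in old control, and 2.32, 1.60 and 3.03 CPM in old Fabp4 shRNA liver. Both followed the chains, with old control replicates 1 and 5 highest and replicate 2 within the young range. Their log2 fold changes in old control against young were 0.60 ± 0.42 and 0.86 ± 0.41, with unadjusted p of 0.175 and 0.0565 in edgeR.

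H2-DMb2, the other beta chain of H2-DM, followed a different order of libraries. It had 20, 29 and 5 counts in young (1.48, 1.85 and 0.382 CPM), 26, 1 and 44 counts in old control (1.51, 0.0736 and 2.78 CPM), and 21, 2 and 12 counts in old Fabp4 shRNA liver (1.28, 0.110 and 0.627 CPM). Old control replicate 2 and old Fabp4 shRNA replicate 3 were both under the floor of 3 counts, and old control replicate 1, high for the chains, lay within the young range. The log2 fold change of old control against young was 0.23 ± 0.96, with a 95% interval from -1.87 to 2.34.

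H2-Oa, the alpha chain of the H2-DM inhibitor H2-O, was too low to be tested. It had 2, 11 and 4 counts in young, 4, 8 and 12 counts in old control, and 9, 0 and 4 counts in old Fabp4 shRNA liver. The 0 in old Fabp4 shRNA replicate 3 allows up to 0.179 CPM without scaling, and no difference was detectable at this depth. Its partner H2-Ob, no member of the set, had 37, 37 and 25 counts in young, 34, 5 and 64 in old control, and 45, 14 and 30 in old Fabp4 shRNA liver. H2-Ob was lowest in the same 2 libraries as H2-DMb2, and its log2 fold change in old control against young was -0.13 ± 0.67.

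Ciita, the co-activator on which the other members depend, stood at 1.26, 1.02 and 1.68 CPM in young, 2.91, 1.10 and 2.71 CPM in old control, and 2.20, 1.88 and 1.72 CPM in old Fabp4 shRNA liver. Old control replicates 1 and 5 were again highest, but all old Fabp4 shRNA libraries stood above the young ones by a small margin, as for 6.79% of all genes. The log2 fold change of old control against young was 0.77 ± 0.46, with an unadjusted p of 0.121 in edgeR.

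**Figure D2:**
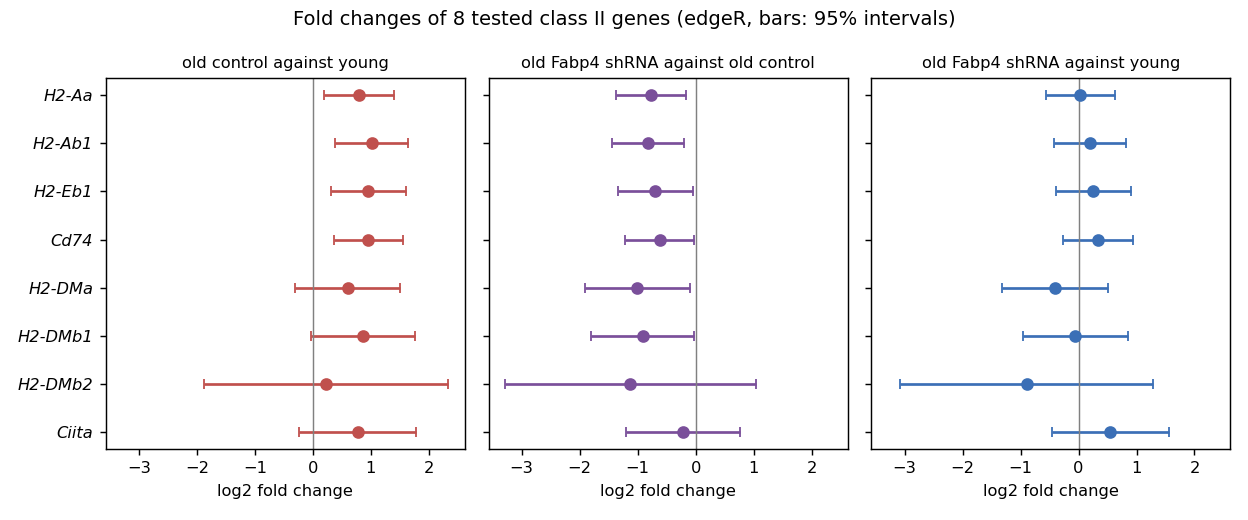
Log2 fold changes (horizontal axis) of the 8 tested members in 3 comparisons, with 95% intervals from edgeR. In old control against young the intervals of H2-Aa, H2-Ab1, H2-Eb1 and Cd74 lie above 0, in old Fabp4 shRNA against old control 6 intervals lie below 0, and in old Fabp4 shRNA against young all 8 include 0.

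Old Fabp4 shRNA liver was then compared with old control liver, which is the comparison of the hairpins. Every one of the 8 tested members was lower on average, and their median log2 fold change was -0.79 against -0.01 for all genes. By edgeR 0 of them passed an adjusted p of 0.05, as did 0% of all genes, and 6 were lower at an unadjusted p under 0.05, against 3.48% of all genes. At that mark 0 members were higher, against 3.27% of all genes. DESeq2 and limma-voom called 0 members, with 6 and 4 lower at the unadjusted mark, and edgeR with scaling by library size alone gave 0 at that mark. The groups of 5.67% of all genes were apart and lower, and those of 0 members, since old control replicate 2 lay within or below the old Fabp4 shRNA range for all 8.

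Among the chains, H2-Ab1 differed by -0.82 ± 0.29 (unadjusted p 0.0138), H2-Aa by -0.77 ± 0.28 (0.0155) and H2-Eb1 by -0.70 ± 0.30 (0.0359) on the log2 scale in edgeR. Cd74 differed by -0.62 ± 0.27 (0.0418), from 91.6 ± 36.8 to 59.5 ± 4.68 CPM (SD, n = 3 each). H2-DMa differed by -1.01 ± 0.42 (0.0323) and H2-DMb1 by -0.92 ± 0.41 (0.0437). H2-DMb2 differed by -1.13 ± 0.99 and Ciita by -0.22 ± 0.45, neither past the unadjusted mark. The adjusted p of the 6 was 0.728 in edgeR. This comparison and the one with young liver share the old control libraries, so the opposite signs of the fold changes are not 2 separate observations.

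Old Fabp4 shRNA liver was also compared with young liver. The median log2 fold change was 0.11 against 0.02 for all genes, and 0 of 8 members passed the adjusted or the unadjusted p of 0.05 in edgeR, where 0.057% of all genes passed the first and 4.43% and 4.5% were higher and lower at the second. DESeq2 and limma-voom also gave 0 members at either mark. The libraries of Cd74 (0.34 ± 0.28) and Ciita (0.55 ± 0.46) were all above the young ones, as were those of 6.79% of all genes. The margins were small. The lowest old Fabp4 shRNA and highest young values were 56.1 and 55.1 CPM for Cd74, and 1.72 and 1.68 CPM for Ciita. H2-Aa differed by 0.03 ± 0.28, with a 95% interval from -0.57 to 0.62. For Cd74 the interval ran from -0.26 to 0.93. With the recovered reads in place of the unnumbered young library's counts, Cd74 was at 0.64 ± 0.28 (unadjusted p 0.0394, adjusted p 0.263 in edgeR) and H2-Eb1 at 0.56 ± 0.31, so that 1 member was higher at the unadjusted mark, also without old control replicate 1. This comparison shares the young libraries with the first one.

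With both old groups set against young, 7 of 8 members were positive, with a median of 0.51, and 0 passed an adjusted p of 0.05 in edgeR against 0.0642% of all genes. Cd74 (0.65 ± 0.24, unadjusted p 0.0206), H2-Ab1 (0.61 ± 0.25, 0.0334) and H2-Eb1 (0.61 ± 0.26, 0.0400) were higher at the unadjusted mark, as were 5.44% of all genes. DESeq2 gave 0 called and 3 at the unadjusted mark, and limma-voom 0 and 1. The count of 3 was 0 without young replicate 1, 1 without young replicate 5, replicate 1 or 5 of old control, or replicate 6 of the Fabp4 shRNA group, and 5 without old control replicate 2. It was 2 without the unnumbered young library or old Fabp4 shRNA replicate 1.

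**Figure D3:**
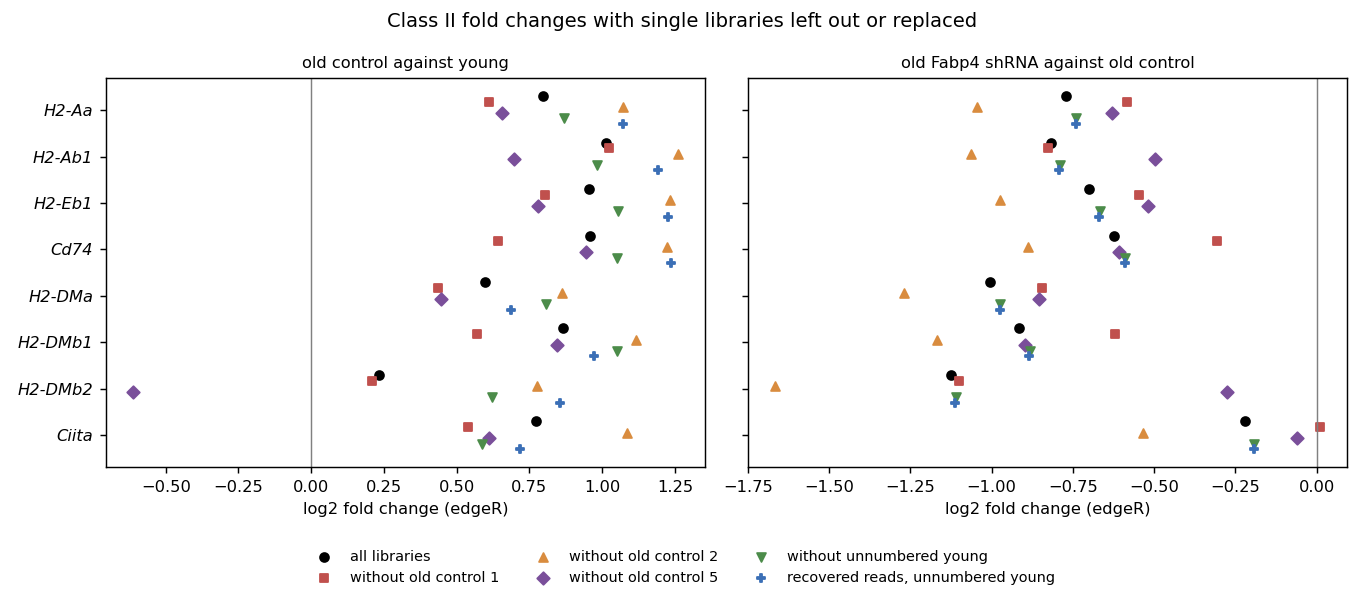
Log2 fold changes (horizontal axis) of the 8 tested members with all libraries, with an old control library or the unnumbered young library left out, and with the recovered reads in place of that library's counts. H2-Ab1 in old control against young is 1.01 with all libraries, 1.02 without replicate 1 and 0.70 without replicate 5 of old control, and in both comparisons of old control all 8 members lie further from 0 without replicate 2.

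The comparisons were repeated without old control replicate 1, the library with high interferon genes. Without it, the log2 fold changes of old control against young were 1.02 ± 0.33 for H2-Ab1, 0.80 ± 0.33 for H2-Eb1, 0.64 ± 0.26 for Cd74 and 0.61 ± 0.30 for H2-Aa, and 3 members kept an unadjusted p under 0.05 in edgeR. Of these 4, Cd74 moved most, from 0.96. In old Fabp4 shRNA against old control, 1 member, H2-Ab1 at -0.83 ± 0.33, kept an unadjusted p under 0.05 without that library, and Cd74 was at -0.31 ± 0.26. Without old control replicate 5 instead, 0 members kept it, and H2-Ab1 was at -0.50 ± 0.28. The count was 2 without old Fabp4 shRNA replicate 1 and 1 without replicate 3.

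The unnumbered young library bears on the size of the difference between old control and young liver. Its count column gave 27.7, 24.7, 21.8 and 53.3 CPM, without scaling between libraries, for H2-Aa, H2-Ab1, H2-Eb1 and Cd74, and the reads recovered from its FPKM column gave 12.5, 13.3, 10.2 and 24.2. With the recovered reads, old control against young gave 1.07 ± 0.30, 1.19 ± 0.32, 1.23 ± 0.31 and 1.23 ± 0.28 for the same genes, with 0 members called and 5 higher at an unadjusted p under 0.05 in edgeR. For Cd74, the overlap of old control and young liver rests on the count column of the unnumbered library. Young replicates 1 and 5 held 46.9 and 39.5 CPM (TMM-scaled), below the 53.9 CPM of old control replicate 2. H2-DMb1 was alike, with 2.00 and 2.14 CPM below 2.65 CPM. The small margin of Cd74 between old Fabp4 shRNA and young liver rests on that count column too. Which column belongs to the animal is not known from the sources used here.

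Ratios between members show which of them moved together from liver to liver. Per length, H2-Eb1 over H2-Aa ran from 1.05 to 1.54 and Cd74 over H2-Aa from 2.33 to 3.28, ranges of 1.47-fold and 1.41-fold over 9 libraries. H2-Aa over H2-Ab1, the 2 chains of I-A, varied more, from 0.601 in young replicate 5 to 1.05 in young replicate 1, both within the young group. H2-DMb2 over H2-DMb1 was 0.643, 0.525 and 0.155 in young, 0.219, 0.0241 and 0.538 in old control, and 0.480, 0.060 and 0.180 in old Fabp4 shRNA liver, so each group held both high and low livers. The 2 lowest ratios rest on 1 and 2 counts of H2-DMb2, and their exact 95% intervals ran from 0.000594 to 0.143 in old control replicate 2 and from 0.00692 to 0.237 in old Fabp4 shRNA replicate 3. The interval of the highest, in young replicate 1, ran from 0.342 to 1.19.

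**Figure D4:**
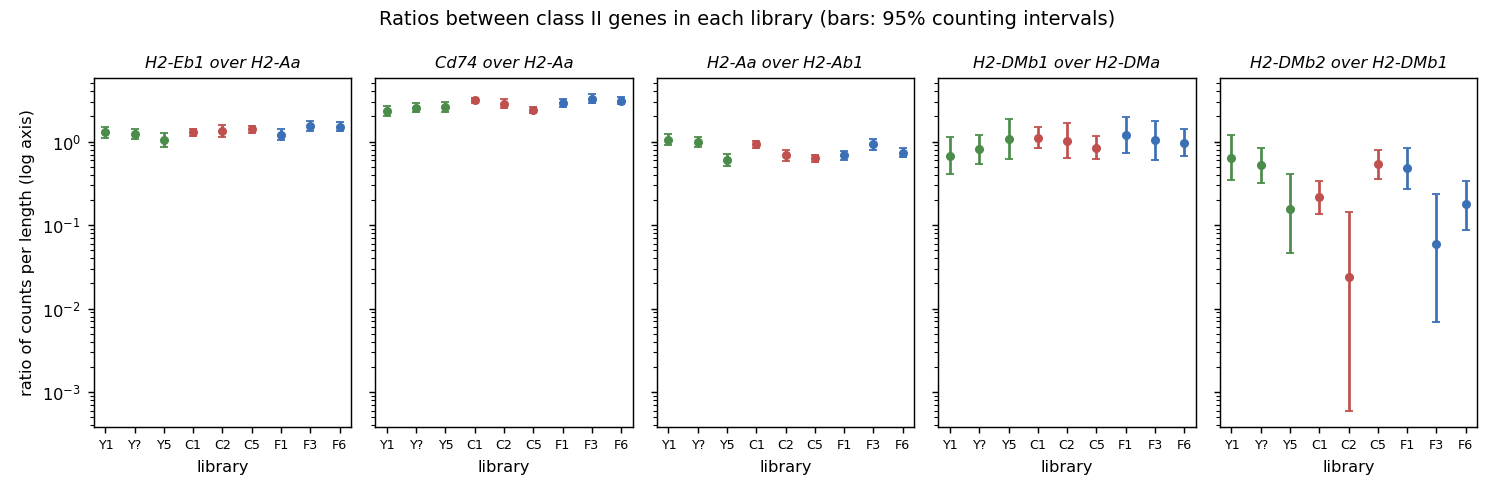
Ratios of counts per length between pairs of members (log axis) in each library, with exact 95% binomial intervals that cover counting error only (Y young, C old control, F old Fabp4 shRNA, with animal numbers). Cd74 over H2-Aa stays between 2.33 and 3.28, while H2-DMb2 over H2-DMb1 in old control replicate 2, from 1 count of H2-DMb2, has an interval from 0.000594 to 0.143.

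Likeness across the 9 libraries was measured as Pearson's r of log2 CPM with the mean standardized pattern of H2-Aa, H2-Ab1, H2-Eb1 and Cd74, as a description over livers that share groups. The other members had r of 0.908 (H2-DMb1), 0.831 (H2-DMa), 0.706 (Ciita) and 0.552 (H2-DMb2). Of 12573 other genes, the most alike were Gm44220 (0.970), Otulinl (0.968), Csnk1e (0.940), Kctd6 (0.937), Zeb2 (0.937), Ighg2c (0.931), Smarcd1 (0.929), Cd38 (0.925), Hoxb4 (0.923) and Dpysl2 (0.922). Ighg2c is an immunoglobulin heavy chain, Cd38 a surface enzyme of many immune cells and Zeb2 a transcription factor of myeloid and other cells.

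For H2-DMb2 the same measure, added after its values had been seen, gave Cd79a (0.938) and Cd79b (0.930), both parts of the B cell receptor, among its 3 most alike genes, and H2-Ob (0.925) as the fifth. Cd79a stood at 2.96, 2.62 and 0.840 CPM in young, 2.73, 1.03 and 3.85 CPM in old control, and 2.56, 0.827 and 1.78 CPM in old Fabp4 shRNA liver. All 13 B cell markers summed to 21.8 to 39.2 CPM in young, 39.0 to 147.8 in old control and 49.1 to 154.0 in old Fabp4 shRNA liver. Ighm made up most of the sum in the old livers but not in the young. It ran from 6.56 to 14.6 CPM in young, 33.8 to 116.6 in old control and 43.7 to 125.5 in old Fabp4 shRNA liver. In old Fabp4 shRNA against young, 10 of 12 tested B cell markers were negative, with a median log2 fold change of -0.38. Fcmr was at 0 counts in old Fabp4 shRNA replicate 3. The part of B cells in the H2-DMb2 values was not tested.

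Other genes of the class II route were examined as lists, fixed with earlier results of these data known, and 0 genes of any list passed an adjusted p of 0.05 in edgeR in any comparison. Among 7 promoter factors, 1 stood higher in old control than in young at an unadjusted p under 0.05, against 6.42% of all genes. At this mark 0 factors and 0 members were lower, against 4.07% of all genes. The higher one was Rfxank, a subunit of the X box factor RFX, at 7.69, 8.17 and 6.95 CPM in young, 18.1, 17.1 and 15.2 CPM in old control, and 10.7, 9.43 and 8.05 CPM in old Fabp4 shRNA liver. Unlike the members, it was high in all 3 old control libraries, and neither comparison of old control had overlapping groups, as for 8.89% of all genes that stood apart and higher in old control against young and 5.67% apart and lower in old Fabp4 shRNA against old control. Its log2 fold changes were 1.14 ± 0.22 (adjusted p 0.165) against young and -0.84 ± 0.22 (adjusted p 0.728) for old Fabp4 shRNA against old control in edgeR. Its exons overlap Nr2c2ap on the opposite strand over 33.8% of their length, so the reads may be shared. The factor with the next smallest p was Creb1, at 0.43 ± 0.24 against young.

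In old control against young, 6.42% of all genes were higher at the unadjusted mark. Among 9 processing genes, 1 stood higher at that mark, with a list median of -0.01. It was Ctss, cathepsin S, which trims Cd74, at 12.3, 19.2 and 12.8 CPM in young, 62.2, 20.9 and 31.2 CPM in old control, and 18.2, 16.3 and 23.8 CPM in old Fabp4 shRNA liver. Old control replicates 1 and 5 were highest, as for the chains, and its log2 fold change was 1.37 ± 0.36 (adjusted p 0.258 in edgeR). March1, a ligase that removes class II molecules from the surface, differed by 0.76 ± 0.41. Among 6 tested costimulatory genes, all were positive, with a median of 0.79, and 1 was higher at the unadjusted mark. It was Cd86, the ligand of Cd28, at 2.07, 2.11 and 1.76 CPM in young and 6.04, 3.09 and 3.47 CPM in old control liver (1.09 ± 0.41). This count was 0 without young replicate 5 or old control replicate 1. Cd274 differed by 0.80 ± 0.46.

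In old Fabp4 shRNA against old control, the same lists gave 1 of 7 promoter factors lower, 2 of 9 processing genes lower and 2 higher, and 1 of 6 costimulatory genes lower at the unadjusted mark. Of all genes, 3.48% were lower and 3.27% higher at that mark. Cd86 was at 1.71, 0.993 and 1.78 CPM in old Fabp4 shRNA liver and differed by -1.49 ± 0.41, with no overlap between the groups, as for the 5.67% of all genes above. Ctss differed by -0.97 ± 0.35. The 2 lower processing genes became 0 without old control replicate 1 and also without replicate 3 of the Fabp4 shRNA group. The 2 higher ones became 0 without replicate 2 or 5 of old control, and also without replicate 3 or 6 of the Fabp4 shRNA group. Against young liver, old Fabp4 shRNA had 1 processing gene lower and 0 of the other 2 lists past the mark. Of all genes, 4.5% were lower and 4.43% higher there.

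Genes of class I presentation, the route for peptides made inside the cell, were examined for contrast. Of 16 tested in old control against young, 0 were higher or lower at the unadjusted mark, against 6.42% and 4.07% of all genes. Their median was 0.12, and the smallest p belonged to Pdia3 (0.66 ± 0.33) and Psme2 (-0.56 ± 0.33). Interferon gamma is the classical inducer of Ciita, and of 17 tested genes it induces, 3 were higher and 0 lower, with a median of 0.43. Cxcl10 (1.14 ± 0.41) and Igtp (0.65 ± 0.26) had the smallest p. This count was 0 without the unnumbered young library or old control replicate 1, and 6 without old control replicate 2. Ifng itself had between 0 and 6 counts per library. Of 20 type I interferon genes, 6 were higher, led by Oas3 (2.58 ± 0.84) and Ifi44 (2.02 ± 0.66), with a median of 0.88. This count was 0 without old control replicate 1, 2 without the unnumbered young library, 3 without young replicate 1 and 9 without old control replicate 2. Their summed level was 157 to 431 CPM in young liver, and the old control group held 1013, 268 and 319 CPM (replicates 1, 2, 5). In old Fabp4 shRNA against old control, 13 of 16 class I, 15 of 17 interferon gamma and 20 type I interferon genes were negative. Their medians were -0.27, -0.47 and -1.11. At the unadjusted mark 2, 2 and 4 were lower, against 3.48% of all genes. Both interferon counts were 0 without old control replicate 1, and the class I count was 0 without replicate 5. The part of interferon in the class II values was not tested.

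**Figure D5:**
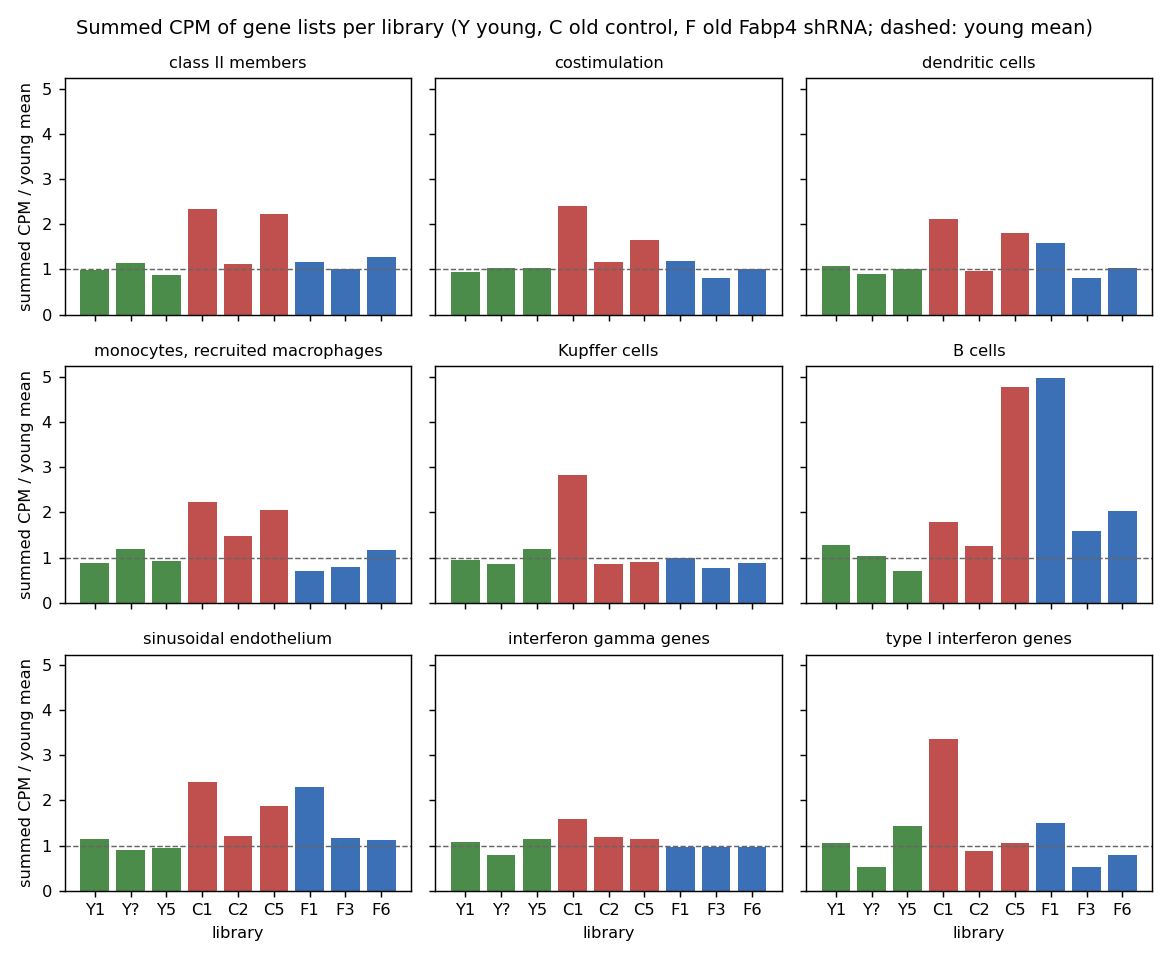
Summed CPM of the 9 members and of 8 other gene lists in each library, divided by the mean of the 3 young libraries (vertical axis, dashed line at 1). The members reach 2.34 and 2.23 in old control replicates 1 and 5, monocyte and recruited macrophage genes 2.23 and 2.04 and dendritic cell genes 2.12 and 1.81 there, while Kupffer cell genes reach 2.82 in replicate 1 only. In old control replicate 5, Spp1 alone held 141.7 of the 273.9 CPM of the monocyte and recruited macrophage list.

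Markers of cells that carry class II molecules were set beside the members. In whole tissue, fewer cells of a type and less RNA per cell cannot be told apart. The 13 dendritic cell markers summed to 18.2 to 22.1 CPM in young, to 43.2, 19.8 and 36.9 CPM in the old control group, and to 16.3 to 32.3 CPM in old Fabp4 shRNA liver, with Bcl11a at 0 in young replicate 5. Of 10 tested, 2 were higher in old control than in young at the unadjusted mark, against 6.42% of all genes. These were Itgax (1.38 ± 0.48) and Zbtb46 (0.78 ± 0.35), and the list median was 0.74. The 13 markers of monocytes and recruited macrophages summed to 119 to 160 CPM in young, 299, 198 and 274 CPM in old control and 95.5 to 155 CPM in old Fabp4 shRNA liver, with S100a4 at 0 in all libraries but old control replicate 1. Spp1, which is also in the bile duct list, held a large part of these sums. It stood at 47.7 to 51.7 CPM in young, 50.3, 66.5 and 141.7 CPM in old control and 17.6 to 34.2 CPM in old Fabp4 shRNA liver. Of 12 tested, 6 were higher in old control, led by Lyz2 (1.29 ± 0.38) and Ly6c2 (1.52 ± 0.54), with a median of 1.14. In old Fabp4 shRNA against old control, 5 of the 12 were lower at that mark, as were 3.48% of all genes. Other lists had 4 of 11 Kupffer cell, 3 of 6 plasma cell, 1 of 10 dendritic cell, 1 of 12 endothelial and 0 of 12 B cell markers lower there. The sums of dendritic cell markers and of monocyte and recruited macrophage markers had the same 2 highest libraries as the class II members. Plasma cell markers shared this trait. For replicates 1, 2 and 5 of old control they summed to 378, 364 and 607 CPM, and no other liver exceeded 324 CPM. Costimulatory genes shared it too, with sums of 20.9, 10.2 and 14.3 CPM in that order and no other liver above 10.4 CPM. The trait was thus not limited to dendritic cells and macrophages. The part of these cells and genes in the class II result was not tested.

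Kupffer cell markers were high in one of those 2 libraries only. All 12 summed to 290 to 404 CPM in young, 950, 286 and 304 CPM in old control and 257 to 337 CPM in old Fabp4 shRNA liver, with none at 0. Of 11 tested, 3 were higher in old control than in young at the unadjusted mark, against 6.42% of all genes. Among them were Adgre1 (1.10 ± 0.43) and C1qb (1.16 ± 0.45), and the list median was 0.67. The 12 endothelial markers summed to 137 to 172 CPM in young, 363, 181 and 282 CPM in old control and 345, 175 and 169 CPM in old Fabp4 shRNA liver, with none at 0. Of the 12, 8 were higher in old control than in young, led by Clec4g (1.38 ± 0.35) and Oit3 (1.25 ± 0.35), with a median of 0.99.

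The remaining lists gave the following counts at an unadjusted p under 0.05 for old control against young in edgeR. At that mark 6.42% of all genes were higher and 4.07% lower. Of 12 tested B cell markers 1 was higher, Ighm (2.61 ± 0.62), with Pax5 next at -1.04 ± 0.83 and a list median of -0.01. Of 6 plasma cell markers 4 were higher, led by Igkc (1.89 ± 0.37) and Igha (1.58 ± 0.36). Of 12 T and natural killer cell markers 1 was higher, Ccl5 (0.91 ± 0.39), and Lck differed by 0.82 ± 0.52. Of 10 stellate cell markers 4 were higher, led by Pdgfra (1.30 ± 0.31) and Dcn (1.11 ± 0.27), and of 6 bile duct markers 2, Sox9 (2.01 ± 0.57) and Spp1 (0.81 ± 0.35). Cxcl13, the only tested gene of the lymphoid tissue list, differed by 2.94 ± 0.98 and was 42.0 CPM in old control replicate 1 against at most 7.68 CPM elsewhere. All 7 tested red cell genes were lower, among them Hbb-bt (-2.32 ± 0.43), and of 9 hepatocyte markers 0 differed, with Serpina1a at -0.26 ± 0.29 and Cyp2e1 at -0.28 ± 0.32. Mylpf, the only tested muscle gene, differed by -6.30 ± 2.32 through the unnumbered young library. The part of these cells in the class II values was not tested.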

How the data were processed

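The submitters' processing notes name HISAT2 and the genome GRCm38.p6. How reads were counted, with which annotation and strand setting, is not given in the sources used here. For each gene of 9 libraries, the authors deposited a whole-number count. The deposited FPKM table holds the authors' counts per gene length and library size. FPKM over count, relative to young replicate 1, was constant in 8 columns for 100% of 10483 genes (tolerance 0.001), but for 0.229% in the unnumbered young column. Reads recovered from that column were whole within 0.05 reads in 100% of 17877 values and summed to 11805823. Counts are from 3 separate animals per group, so the p-values measure the spread between them. The count column was used for the main results.

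Genes passing filterByExpr (14025) were scaled by TMM (factors 0.825 to 1.15) and tested with edgeR 4.0.16 in R 4.3.3, with robust quasi-likelihood F tests on a model of 3 group means (6 residual degrees of freedom), two-sided, with Benjamini-Hochberg adjustment over all tested genes. The biological coefficient of variation was 0.320. The pipeline was tested on simulated data. H2-Oa did not pass the filter. TPM and ratios used the gene lengths implied by the FPKM table. Positions are from GENCODE M21, in which 54409 of 54532 identifiers were found, and promoter sequences from RefSeq. Alternatives were other scalings, filters, DESeq2 1.42.0, limma-voom and limma-trend (limma 3.58.1) on log2 FPKM, fits to the groups compared, a replicate block, the recovered reads, and leaving out each library.

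The members and the gene lists were chosen with earlier results of these data known. Named genes are all members, the 2 genes of each list with the smallest p in old control against young, and the 10 genes most like the classical chains. Some genes that this rule names are not reported here. Genes named beyond that (H2-Ea-ps, Cd79a, Cd79b, Fcmr, Bcl11a, S100a4, Irf7 and Ifng) were chosen after their values were seen. The intervals of the ratios and the floors cover counting error only. The edgeR intervals of the fold changes also include the spread between animals. The main model did not pair libraries by animal number, since the labels do not say that the numbers mark pairs.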

Additional observations from a re-analysis of the deposited data

How the results depend on the processing

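Of 8 tested members in old control against young, edgeR called 0, and 0 in each fit with a library left out. It called 1 with no filter on low counts (H2-Ab1, 0.99 ± 0.26, adjusted p 0.0340). Under the replicate block it called 4, among them Cd74 at 1.34 ± 0.22 and H2-Eb1 at 1.40 ± 0.26. Libraries whose number occurs in no other group carry no information on the groups under that block. Old control against young then rests on replicates 1 and 5 of both groups, without old control replicate 2 and the unnumbered young library. For old Fabp4 shRNA, replicate 1 alone remains. The labels do not say that the numbers mark pairs. Deviations of same-numbered libraries correlated at 0.112, 0.0882, 0.0295 and -0.0457, and those of other libraries from different groups at -0.361 to 0.350. So few same-numbered pairs cannot decide whether the numbers are a pairing. The other 3 comparisons had 0 members called in every alternative. The fold changes of H2-Aa, H2-Ab1, H2-Eb1 and Cd74 kept their sign in all alternatives of the first 2 comparisons. Signs turned as follows. In old control against young, H2-DMb2 was -0.37 by limma-voom and ran from -0.61 to 0.78 with a library left out. In old Fabp4 shRNA against old control, Ciita ran from -0.54 to 0.011 with a library left out and was 0.022 with recovered reads and without old control replicate 1. In old Fabp4 shRNA against young, H2-DMb1 was 0.23 by library size only, 0.022 and 0.020 on log2 FPKM plus 1 or 0.1, 0.070 with the block, 0.086 with recovered reads and 0.086 when old control replicate 1 was also out, and ran from -0.30 to 0.17 with a library left out. There H2-DMb2 was 0.37 with the block, and leaving out a library took H2-Aa from -0.11 to 0.13 and the median from -0.11 to 0.18. For both old groups against young, H2-DMb2 was 0.091 and 0.00495 on log2 FPKM plus 1 or 0.1, 0.82 with the block, 0.30 with recovered reads and 0.29 when old control replicate 1 was also out. With a library left out it ran from -0.75 to 0.065, and H2-DMa from -0.11 to 0.32. Library size alone moved the median of all genes to 0.16, 0.13, 0.31 and 0.23 in the 4 comparisons, and 0 members were then lower at an unadjusted p under 0.05 in old Fabp4 shRNA against old control. All genes called by DESeq2 numbered 168, 7, 124 and 218, against 5, 0, 8 and 9 by edgeR, 3, 0, 0 and 5 by limma-voom, 137, 8, 94 and 226 with no filter and 158, 73, 23 and 79 with the block. With recovered reads they numbered 10, 0, 62 and 106. The causes were not tested. Depth limits H2-Oa and H2-DMb2, with counts at or under the floor in some libraries.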
